A study of Mus musculus with 155 samples.

Results

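Phgdh, the enzyme that commits carbon to serine synthesis, and Slc6a9, the glycine transporter GlyT1, were read cell by cell in 155 sorted mouse brain cells. The pair were 2 of the 3422 genes in the deposited table. They were chosen by their measured values, as genes far lower in cells carrying both reporters of the study than in oligodendroglia sorted after demyelination, so that difference is given as a description only. The choice named no fixed threshold.

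Phgdh oxidises 3-phosphoglycerate, an intermediate of glycolysis, in the first step of the pathway that makes serine inside the cell. Serine is in turn the source of glycine and of one-carbon units for nucleotide synthesis, and it enters phosphatidylserine and the sphingolipids, among them the galactolipids that are abundant in myelin. Slc6a9 belongs to the sodium- and chloride-dependent transporters of the SLC6 family and brings glycine into the cell. In the brain, serine synthesis and glycine uptake by this transporter are known mainly from glia.

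Phgdh (ENSMUSG00000053398) lies on the minus strand at chr3:98313170-98339990 of GRCm38, and its main transcript, numbered first in GENCODE, has 12 exons. Slc6a9 (ENSMUSG00000028542) lies on the plus strand at chr4:117834506-117875198, with 14 exons in its main transcript. The start regions are printed because the pair were high in many of the same cells. Sequences come from RefSeq on GRCm38.p6 and are cut where GENCODE vM21 first annotates an exon, at chr3:98339991-98340219 for Phgdh and at chr4:117849100-117849192 and chr4:117855297-117855491 for Slc6a9. Capitals mark a CCAAT match that lies wholly within the printed bases, and another Phgdh match runs past the cut and is unmarked.
Phgdh start, minus strand: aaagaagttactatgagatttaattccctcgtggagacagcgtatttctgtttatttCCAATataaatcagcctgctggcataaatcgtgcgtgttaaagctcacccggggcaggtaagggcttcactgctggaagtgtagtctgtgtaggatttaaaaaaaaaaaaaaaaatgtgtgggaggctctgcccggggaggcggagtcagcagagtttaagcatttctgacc
Slc6a9 second start, plus strand: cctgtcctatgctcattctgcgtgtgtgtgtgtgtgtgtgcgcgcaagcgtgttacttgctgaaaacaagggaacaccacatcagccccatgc
Slc6a9 last start, plus strand: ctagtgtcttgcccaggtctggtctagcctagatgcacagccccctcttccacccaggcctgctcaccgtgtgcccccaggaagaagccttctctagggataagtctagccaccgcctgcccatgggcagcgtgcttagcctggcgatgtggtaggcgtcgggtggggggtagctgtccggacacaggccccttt

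In the 250 bases before each RefSeq start, searched on both strands, Phgdh held 2 CCAAT matches and no match to the E-box (CANNTG), the GC box (GGGCGG) or the element bound by Atf4 (TGATGNAA). Slc6a9 has 3 RefSeq starts. The window before the first, which begins inside an annotated exon and is not printed, held 4 E-box and 2 GC box matches, and the other 2 windows held no match to any of these motifs. Of 32851 windows of that length, 33.8% held CCAAT, 66.2% an E-box, 32.7% a GC box and 3.45% the Atf4 element. GC content was 44% for Phgdh and 60.4% to 60.8% for the 3 Slc6a9 windows, against a median of 52.4%. None of the searched motifs occurred in windows of both genes. Which Slc6a9 start these cells use was not read, and shared regulation was not tested.

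Both genes share transcript sequence with other genes, which bears on every value below. Of the 1863 words of 31 bases in the main Phgdh transcript, 73.1% also occur in 22 annotated pseudogenes, none of which is in the table. Those that share the most words are processed pseudogenes, intronless copies of an mRNA. The stretches below were picked for a near or exact match. They are examples and do not measure how close the sequences are over their full length. The first pair is 60 coding bases of Phgdh, spliced from chr3:98333278-98334543 on GRCm38, and the matching stretch of Gm7901, the pseudogene that shares the most words, at chr8:75711600-75713196. Capitals mark the position at which they differ. The second pair is 60 coding bases of Slc6a9, at chr4:117867759-117867818, and the stretch of a Ccdc24 transcript that is their exact reverse complement.
Phgdh coding: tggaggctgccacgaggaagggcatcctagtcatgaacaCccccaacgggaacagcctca
Gm7901: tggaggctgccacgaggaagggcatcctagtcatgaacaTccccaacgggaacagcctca
Slc6a9 coding: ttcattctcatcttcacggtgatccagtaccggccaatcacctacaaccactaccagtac
Ccdc24: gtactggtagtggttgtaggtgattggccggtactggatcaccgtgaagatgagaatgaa

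Ccdc24, which encodes a coiled-coil domain protein, lies on the opposite strand at chr4:117866524-117872557. Its exons cover 1429 of the 3479 bases of the main Slc6a9 transcript, 363 of them coding. A total of 39.8% of the 3449 words of 31 bases in that transcript occur in Ccdc24 transcripts on one strand or the other. The sources used here give neither the strand setting nor the transcript index of the authors. Reads of Slc6a9 and Ccdc24 can therefore not be told apart over that stretch, and the split of reads between Phgdh and its pseudogene copies is uncertain.

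The cells came from the subventricular zone and corpus callosum of mice aged 8 to 10 weeks and were sorted by reporter, then sequenced by SMART-Seq2, a full-length protocol for single cells. Healthy mice gave NB (37 cells, Gad67-GFP+, strain CB6-Tg(Gad1-EGFP)G42Zjh/J) and O (29 cells, Olig2-Tomato+, strain Olig2-tdTomato TH39Gsat/Mmcd). Mice injected with LPC, a lipid that strips myelin, gave, 6 days later, 27 GFP-positive cells (NBL), 22 Tomato-positive cells (OL) and, from a cross of the strains, 40 cells positive for both reporters (OligNBL). The reporters follow the Gad1 and Olig2 promoters and mark cells with promoter activity, not a lineage. OligNBL titles carry a control mark while their labels give the lesion state, and the labels are followed here. Gate and strain cannot be told apart between populations sorted on different reporters. The labels state 5 mice per condition but do not tie a cell to a mouse. Each population is therefore 1 sample, no test was possible, and an SD between cells is not a replicate error. Cells go by the running number of their titles, CRBT1 and up.

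Values are a normalized signal without unit. Column totals differed by 0.101%, so the depth of a cell cannot be read from them, and the median number of genes detected per cell ran from 950.5 in OL to 1397 in OligNBL. A level is the mean of log2(value + 1) over cells. As a second scale, a gene was counted as present where it ranked among the 500 highest of the cell, which left out 2 NB cells with fewer genes detected. Shares are given with exact 95% intervals by Clopper and Pearson. These cover counting error only and take cells as independent.

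Phgdh was high in most OL and O cells and listed at 0 in nearly all cells of the other populations. The lowest, median and highest values were 5.03, 316 and 219719 in OL and 0, 306 and 35485 in O. NBL cells were all listed at 0, and the highest values were 27.3 in NB and 1.99 in OligNBL, both with a median of 0. The level was 9.16 ± 3.75 (SD between cells, n = 22) in OL and 7.46 ± 4.95 (n = 29) in O. It was 0.13 ± 0.79 (n = 37) in NB, 0.04 ± 0.25 (n = 40) in OligNBL and 0.00 (n = 27) in NBL. In that order OL and O differed by less than their spread, as did NB, OligNBL and NBL, while a wide gap lay between O and NB.

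Ranks gave the same order. Phgdh was present on this scale in 21 of 22 OL cells (95.5%, interval 77.2% to 99.9%) and in 20 of 29 O cells (68.97%, 49.2% to 84.7%). It was so in 1 of 35 NB cells (2.86%, 0.0723% to 14.9%), in 0 of 27 NBL cells (interval to 12.8%) and in 0 of 40 OligNBL cells (interval to 8.81%). Taken as 3 cells of the total, the limits that these counts of 0 allow are 11.1% and 7.5%. Where it was detected, its median rank was 154.5 in OL and 141.5 in O. At its highest, in OL cell CRBT187, Phgdh was the 6th highest gene and held 4.26% of the cell's total signal.

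Slc6a9 showed the same division and a wider spread within OL and O. The lowest, median and highest values were 3.98, 2362 and 741641 in OL and 0, 8.64 and 32274 in O. The highest value was 1.72 in NBL and 2.68 in OligNBL, while NB had 1 cell at 1606 and 1 at 30.3 and was otherwise at or near 0. The level was 10.42 ± 5.04 (n = 22) in OL and 5.89 ± 5.24 (n = 29) in O. It was 0.43 ± 1.91 (n = 37) in NB, 0.24 ± 0.50 (n = 40) in OligNBL and 0.18 ± 0.42 (n = 27) in NBL. OL and O, next to each other in this order, differed by less than their pooled spread of 5.14, and the last 3 populations lay within their spread of each other.

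Slc6a9 was present in 19 of 22 OL cells (86.4%, 65.1% to 97.1%) and in 13 of 29 O cells (44.8%, 26.4% to 64.3%). NB had 2 of 35 such cells (5.71%, 0.700% to 19.2%), and NBL and OligNBL had 0 of 27 and 0 of 40, with the same intervals and limits as for Phgdh. In OL cell CRBT187 Slc6a9 was the second highest gene of the cell and held 14.4% of its signal. OL cell CRBT174 had 519600, rank 3, and OL cell CRBT181 had 119021, rank 9. The OL level thus includes 3 cells in which this transporter was among the 10 highest genes.

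**Figure D1:**
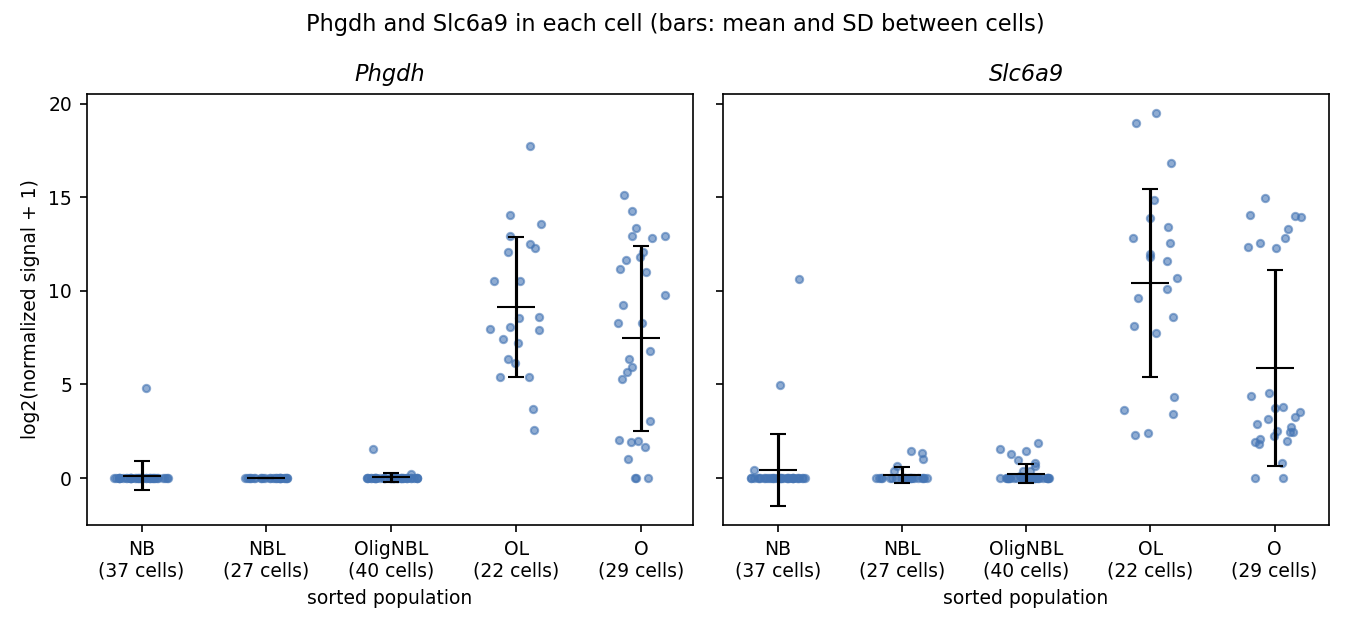
Level of Phgdh (left) and Slc6a9 (right) in each cell, as log2(normalized signal + 1), for the 5 sorted populations. Each point is 1 cell and the bars give the mean and SD between cells. OL cells reach 17.75 for Phgdh and 19.50 for Slc6a9, while NB, NBL and OligNBL cells lie at 1.88 or lower apart from 1 NB cell for Phgdh and 2 NB cells for Slc6a9.

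In the contrast that chose the pair, every OL cell lay above every OligNBL cell for both genes. OligNBL minus OL was -9.12 for Phgdh and -10.19 for Slc6a9 on the log2(value + 1) scale, which are the 8th and the 4th lowest of 3422 differences. A difference of at least 3 in that direction was seen for 6.95% of genes, and 4.03% had every mean over alike cells lower. Cells without any overlap were seen for 5 genes, 0.146% of the table, and nothing is read from the pair's place among them, since this contrast chose them. They included the myelin gene Mbp and the iron carrier Trf, named after their values were seen. The lowest OL and highest OligNBL values were 21.7 and 1.15 for Mbp, and 38.9 and 14.1 for Trf.

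OligNBL levels, whose low values are what chose the pair, stood beside those of the neuroblasts as follows. Against NBL, their difference was 0.04 for Phgdh and 0.06 for Slc6a9, and NBL differed from NB by -0.13 and -0.25. All lay within the spread between cells. By contrast O was higher than NB by 7.33 for Phgdh and 5.45 for Slc6a9, the 19th and 73rd highest differences of the table, where 8.5% of genes were higher by at least 3. Every mean over alike O cells lay above every NB one for both genes, which held for 15.3% of genes. Single cells did overlap: the 0.117% of genes with every O cell above every NB cell did not include either member. Neither O nor NB took part in the contrast that chose the pair, though all 5 populations stand in 1 normalized table.

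OL and O come from the same strain and gate, with and without LPC. Between them Slc6a9 differed more than Phgdh, and both differences were smaller than the spread between cells. OL was higher than O by 4.53 for Slc6a9 (38th highest of 3422) and by 1.70 for Phgdh (358th highest), against pooled SDs between cells of 5.14 and 4.39. Of all genes, 15.9% were higher in OL by at least 1 and 4.03% by at least 3. The means of alike cells overlapped between OL and O for both members, whereas 1.72% of genes had every OL mean above every O mean. Medians over cells differed by 7.87 for Slc6a9 and by 0.03 for Phgdh. OL is also a population of the contrast that chose the pair for being high there, so their places among all genes are a description from which nothing is read.

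Cells with neighbouring numbers in their titles were alike, and the members' levels differed between these groups but also spread widely within most of them. Average linkage on the correlation of all genes, joined at a mean correlation of 0.4, gave 20 sets, and cells of 1 population in 1 set are called a part here where there were at least 3 of them (21 parts, 149 cells). The members were among the genes clustered, so what follows describes the parts and tests nothing. OL part 1 (8 cells, CRBT172 to CRBT179) had Phgdh at 41.3, 256 and 17336 (lowest, median, highest) and Slc6a9 at 211.6, 2837 and 519600. In OL part 3 (8 cells, CRBT183 to CRBT190) Phgdh was at 236, 3247 and 219719, and Slc6a9 at 388, 5409 and 741641. Every cell of both parts had both genes among its 500 highest.

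OL part 2 (CRBT180 to CRBT182) had Phgdh at 4300, 82.5 and 68.9, but Slc6a9 at 3.98, 119021 and 4.27, so the transporter was high in 1 cell of 3. OL part 4 (CRBT192 to CRBT194) had the lowest OL levels of both: Phgdh was at 11.9, 5.03 and 174.5 and Slc6a9 at 19.05, 9.67 and 11.5. Each gene was still among the 500 highest in 2 of its 3 cells. OL levels by part therefore ran from 4.58 to 11.70 for Phgdh and from 3.79 to 12.90 for Slc6a9. The SD between cells within a part was 2.55 to 3.36 for Phgdh, against 3.75 over all OL cells. For Slc6a9 it was 0.47 to 8.37, against 5.04.

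O cells divided into 3 parts, with 1 cell outside them. O part 1 (9 cells) held both genes, with levels of 11.08 ± 3.46 and 11.40 ± 4.34 and each gene among the 500 highest in 8 of 9 cells. O part 2 (9 cells) held little of either, with levels of 2.18 ± 3.42 for Phgdh, present in 1 of 9 cells, and 3.56 ± 3.45 for Slc6a9, present in 2 of 9. O part 3 (10 cells) held Phgdh in 10 of 10 cells (8.52 ± 3.29) but Slc6a9 in 3 of 10 (3.61 ± 3.55). By this rank limit, healthy Tomato cells thus included cells with both, cells with neither and cells with the enzyme alone. These words do not mean that a transcript was absent: the lowest Slc6a9 value in O part 3 was 0.78.

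O part 2 and OL part 4 were the same set: 12 cells, CRBT192 to CRBT202 and CRBT208, that ran across the lesion label. Inside that set OL was above O by 2.40 for Phgdh and by 0.23 for Slc6a9. Without it, an alternative chosen after seeing the data, Phgdh stood at 9.89 ± 3.40 in 19 OL cells and 9.84 ± 3.46 in 20 O cells, a difference of 0.05, and was present in 19 of 19 and 19 of 20 (95%). Slc6a9 without the set stood at 11.47 ± 4.60 and 6.93 ± 5.63, again a difference of 4.53, and was present in 17 of 19 (89.5%) and 11 of 20 (55%). Leaving out O part 2 alone turned the Phgdh difference to -0.67. The labels do not say what these 12 cells share.

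**Figure D2:**
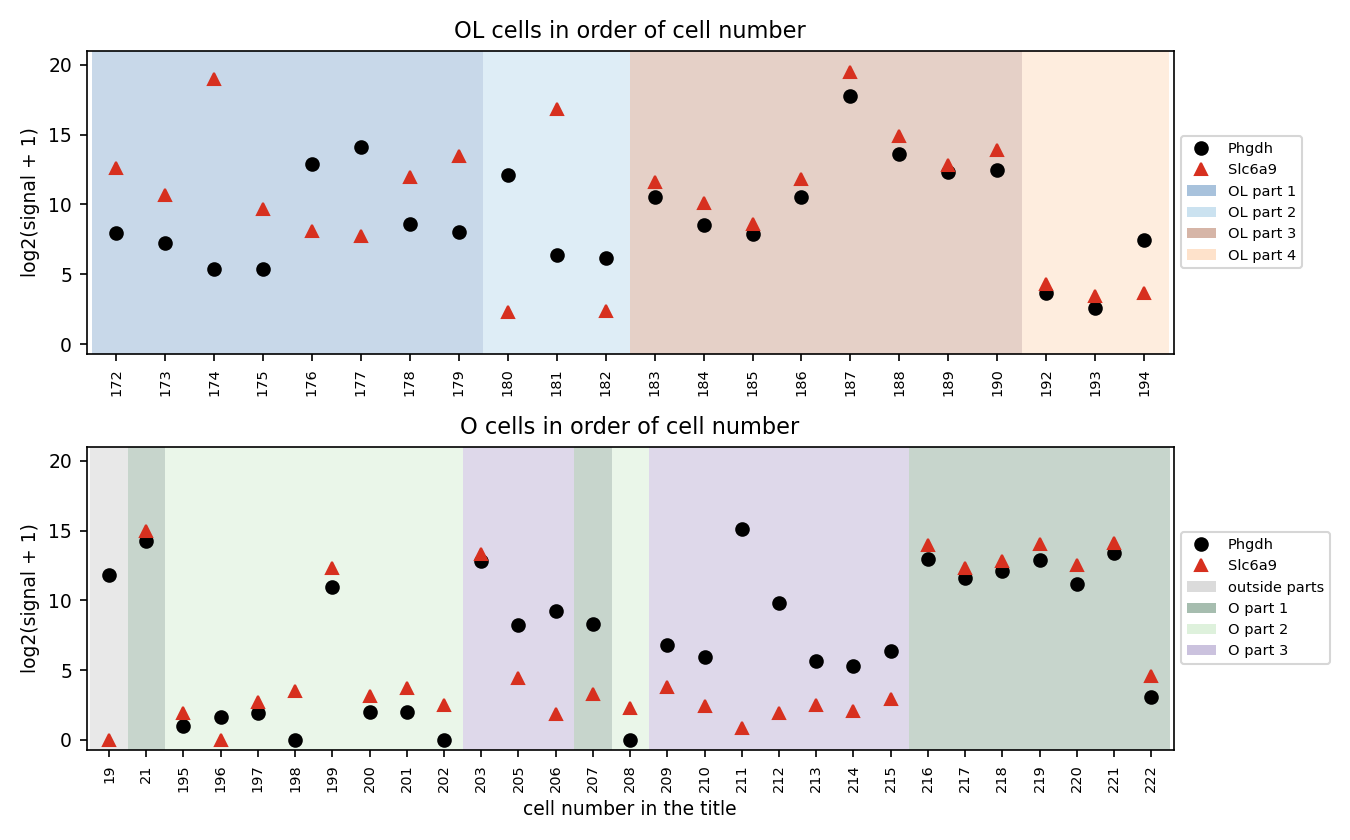
Phgdh (circles) and Slc6a9 (triangles) as log2(signal + 1) in OL cells (top) and O cells (bottom), in order of the number in the cell's title, with shading for the part each cell belongs to. CRBT192 to CRBT202 and CRBT208 lie low for both genes apart from CRBT194 (Phgdh) and CRBT199, and CRBT209 to CRBT215 carry Phgdh with little Slc6a9.

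The pair were often present in the same cell. In OL, 19 cells had both among the 500 highest, 2 had Phgdh alone, 0 had Slc6a9 alone and 1 had neither. In O the counts were 11, 9, 2 and 7, and 7 of the 9 O cells with Phgdh alone were in O part 3. Values above 100 for both were seen in 14 OL and 9 O cells and in no cell of the other populations. Over both populations, Phgdh alone was seen in 11 cells and Slc6a9 alone in 2.

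How closely they varied together depended on the part. Across cells, Pearson's r of the log2 levels was 0.35 in OL (n = 22) and 0.64 in O (n = 29), over cells that share 1 normalized table and that the labels tie to no mouse. In OL part 3 it was 0.99 (n = 8), a value that 6 of the 404 genes detected in every cell of that part reached with Phgdh and 4 with Slc6a9. In O part 1 it was 0.89 (n = 9), reached by 12 of 304 genes with Phgdh and 21 with Slc6a9. In O part 2 it was 0.91 (n = 9), reached by 26 and 20 of 314 genes. That value includes 1 cell far above the rest, CRBT199, with Phgdh at 2029 and Slc6a9 at 4989. The other cells of that part had at most 3.05 and 12.2, so its r is not read as close variation. In O part 3 the r was 0.31 (n = 10), reached by 58 and 19 of 322. In OL part 1 the relation ran the other way, at -0.67 (n = 8): CRBT176 and CRBT177 had the highest Phgdh of the part, 7695 and 17336, and the lowest Slc6a9, 276 and 211.6. These are descriptions of a few alike cells, and the r of 0.81 across all 155 cells includes the differences between populations.

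**Figure D3:**
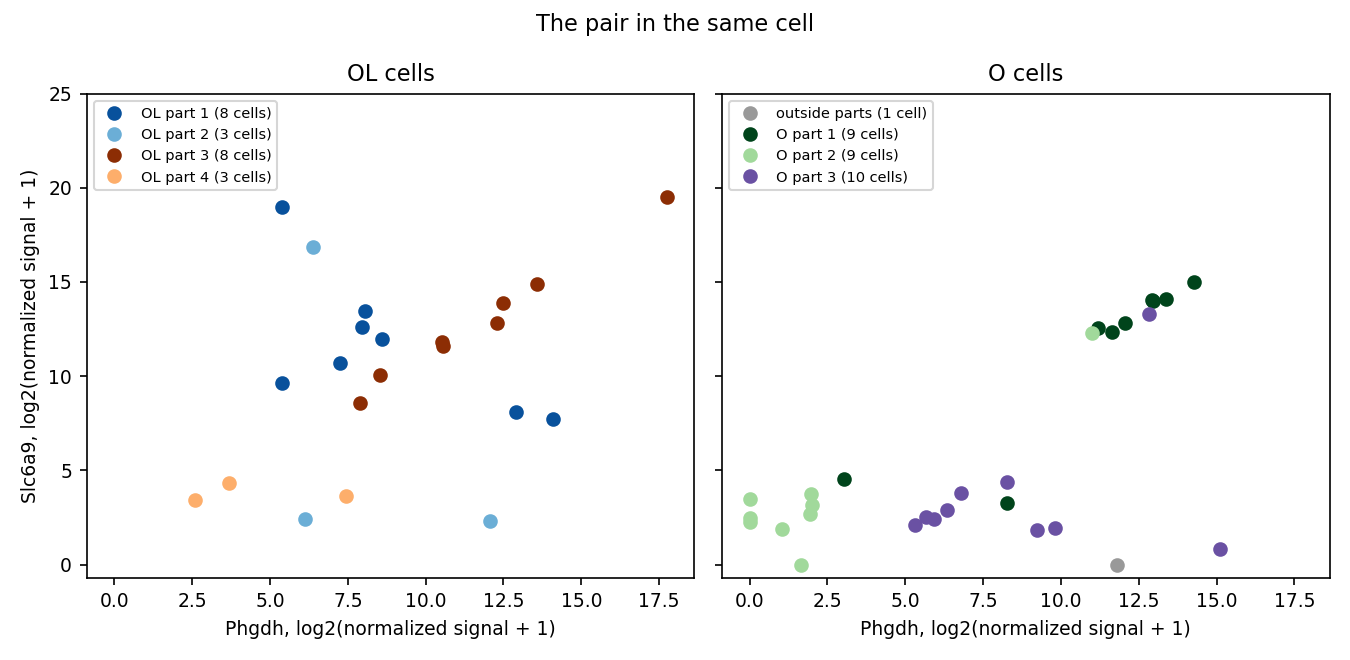
Slc6a9 against Phgdh in the same cell, both as log2(normalized signal + 1), for OL (left) and O (right), coloured by part. OL part 3 and most of O part 1 lie along a rising line, the 8 cells of OL part 1 fall from upper left to lower right, and most of O part 3 lies along the bottom, with Phgdh and little Slc6a9.

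Outside OL and O few values lay above the floor, 3 for Phgdh. They were in NB cell CRBT4 and OligNBL cells CRBT14 and CRBT16, and 0 of 31 NB, 0 of 27 NBL and 0 of 36 OligNBL cells numbered above 21 had any. For Slc6a9 in NB they were in CRBT1, CRBT4 and CRBT6, at up to 1606, and in 0 of 31 cells numbered above 21. Low Slc6a9 values were seen in 8 of 36 such OligNBL cells, up to 2.68, and in 5 of 27 NBL cells, up to 1.72, none of them among the 500 highest genes.

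In OL and O, Ccdc24 was highest in the cells with high Slc6a9. In all 17 OL cells with Slc6a9 above 100, Ccdc24 was above 10 (10.7, 22.6 and 45507 as lowest, median and highest), and in 0 of the other 5, whose highest value was 5.03. In O it was above 10 in all 9 cells with Slc6a9 above 100 (11.8, 47.6 and 396) and in 0 of the other 20, with a highest value of 2.72. Pearson's r across cells was 0.84 in OL (n = 22) and 0.94 in O (n = 29). The 1 NB cell with Slc6a9 above 100, CRBT1, was listed at 0 for Ccdc24, and NB cell CRBT40 had Ccdc24 at 4.25 with Slc6a9 listed at 0. The Ccdc24 level was 4.48 ± 3.77 in OL, 2.04 ± 2.63 in O and at most 0.06 in the other populations. Since the exons overlap on opposite strands, the part of the Ccdc24 signal that comes from Slc6a9 reads, or the reverse, cannot be told apart.

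**Figure D4:**
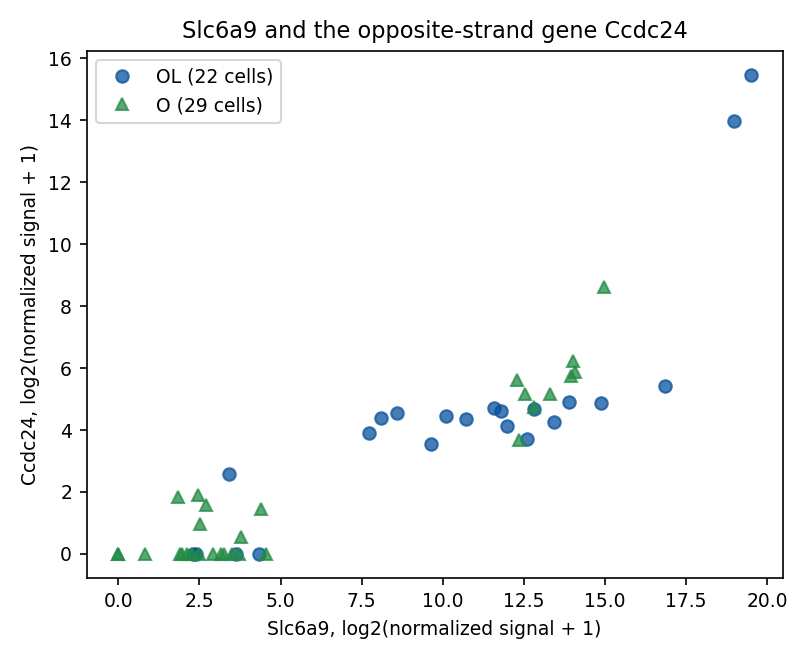
Ccdc24 against Slc6a9 in the same cell, both as log2(normalized signal + 1), with OL cells as circles and O cells as triangles. The 26 cells with Slc6a9 above 100 all lie above every other cell for Ccdc24, and 2 OL cells at the upper right hold the highest values of both.

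Other genes with a pattern like the members' were mostly of mature oligodendrocytes. By Pearson's r over 155 cells, among 3195 genes detected in at least 20 cells, those most like Phgdh included Cryab, a small heat shock protein, at 0.88, Slc6a9 at 0.81, the pseudogene Vmn2r-ps54 at 0.78 and the phosphatase Ptpn13 at 0.78. Those most like Slc6a9 were Ccdc24 at 0.90, then the myelin-associated glycoprotein Mag, Phgdh, Ptpn13 and Cryab, each at 0.81. These values include the differences between populations. Cryab and Phgdh had 0.71 within OL and 0.60 within O, and Ptpn13 and Slc6a9 had 0.98 within O.

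The same parts showed how these genes divided. Cryab was at 3.46 in OL part 4 and 3.75 in O part 2, where Phgdh was low, but also at 3.27 in OL part 2, where Phgdh was at 8.19 and present in 3 of 3 cells. It was at 12.20 in O part 1 and 11.60 in OL part 3. Mag was high where both members were high, at 11.52 in OL part 3 and 7.44 in O part 1, and at 2.15 in O part 3, where Slc6a9 was low. Trf was high in every part, at 10.46 to 18.53 in OL and 13.74 to 16.19 in O, so the parts low in both members were not low in Trf. O part 3 also carried Prom1 at 13.82 and Atp1b2 at 10.91, genes from the list of astrocytes and neural stem cells, against at most 3.17 and 1.99 in the other O parts. The other 3 measured genes of that list stayed low in every O part, at most 2.34 for S100b, 0.43 for Fabp7 and 1.92 for Apoe.

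Genes around the pair were listed by role; 19 of them were in the table, 17 without the members. Phgdh was the 1 measured gene of 3 in serine synthesis, and the list of glycine cleavage had 0 of 4. Measured were 3 of 17 genes of one-carbon exchange, 4 of 19 of serine use, 4 of 14 of neutral amino acid transport, 4 of 21 SLC6 transporters with Slc6a9, 1 of 13 of glycine release and receptors and 2 of 12 of the amino acid response. Counting differences of at least 1, OligNBL was higher than OL in 2 of the 17 and lower in 5, beside 27.3% and 21.1% of all genes, with a median of -0.20 against 0.13 over the table. OL against O gave 5 higher and 2 lower, beside 15.9% and 15.7% of all genes (median 0.13 against -0.10), and O against NB 3 and 1, beside 19.4% and 20.7% (0.29 against 0.09). NBL against NB gave 3 and 1, beside 17.4% and 17.3%, and OligNBL against NBL 4 and 3, beside 25.7% and 20.3%.

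Genes of serine exchange and use did not share one pattern with Phgdh. Gart, a purine synthesis enzyme that uses glycine and formyl units, was at 3.97 ± 4.77 in O and at most 0.71 elsewhere. It was present in 10 of 10 cells of O part 3 and in 1 of 9 and 0 of 9 cells of the other O parts. Mthfd2, a mitochondrial one-carbon enzyme, was at 2.28 ± 3.21 in NB and listed at 0 in all OligNBL and OL cells. Its relative Mthfd2l was at 3.47 ± 3.74 in NBL and at most 1.59 elsewhere. Pisd, which turns phosphatidylserine into phosphatidylethanolamine, was at 2.24 ± 2.76 in OligNBL and at most 0.41 elsewhere. Sars, which charges tRNA with serine, was at 2.25 ± 3.21 in OL and was present in 8 of 8 cells of OL part 3 and in no cell of the other OL parts.

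Transport and glycine receptor genes also differed by part. Slc6a6, the taurine transporter, was at 4.13 ± 4.95 in OL and at most 0.29 elsewhere, with 8 of 8 cells of OL part 1 holding it among their 500 highest genes and no cell of the other OL parts. Glrb, the beta subunit of the glycine receptor, was at 3.81 ± 4.95 in OL and 1.87 ± 3.66 in O, and was present in 8 of 8 cells of OL part 3 and in no other OL part. Slc6a20b, another gene of the SLC6 family, was spread over all populations, at 5.395 to 6.93. Slc38a2, a neutral amino acid transporter, was at 2.50 ± 3.501 in OligNBL and 2.37 ± 2.93 in OL.

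Of the amino acid response, Atf4, a transcription factor known to drive serine synthesis genes, was at 2.38 ± 3.58 in OL, 0.80 ± 1.94 in O and at most 0.21 in the GFP and double-positive populations. It was present in 7 of 8 cells of OL part 3, where Phgdh was highest, and in 0 of 8 cells of OL part 1, which held Phgdh in every cell. Its target Ddit3 was at 2.40 ± 3.31 in O, with 9 of 10 cells in O part 3, and at most 0.22 elsewhere. Cells with Phgdh included cells with and cells without Atf4 among their highest genes. Whether Atf4 acts on Phgdh in these cells was not tested.

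**Figure D5:**
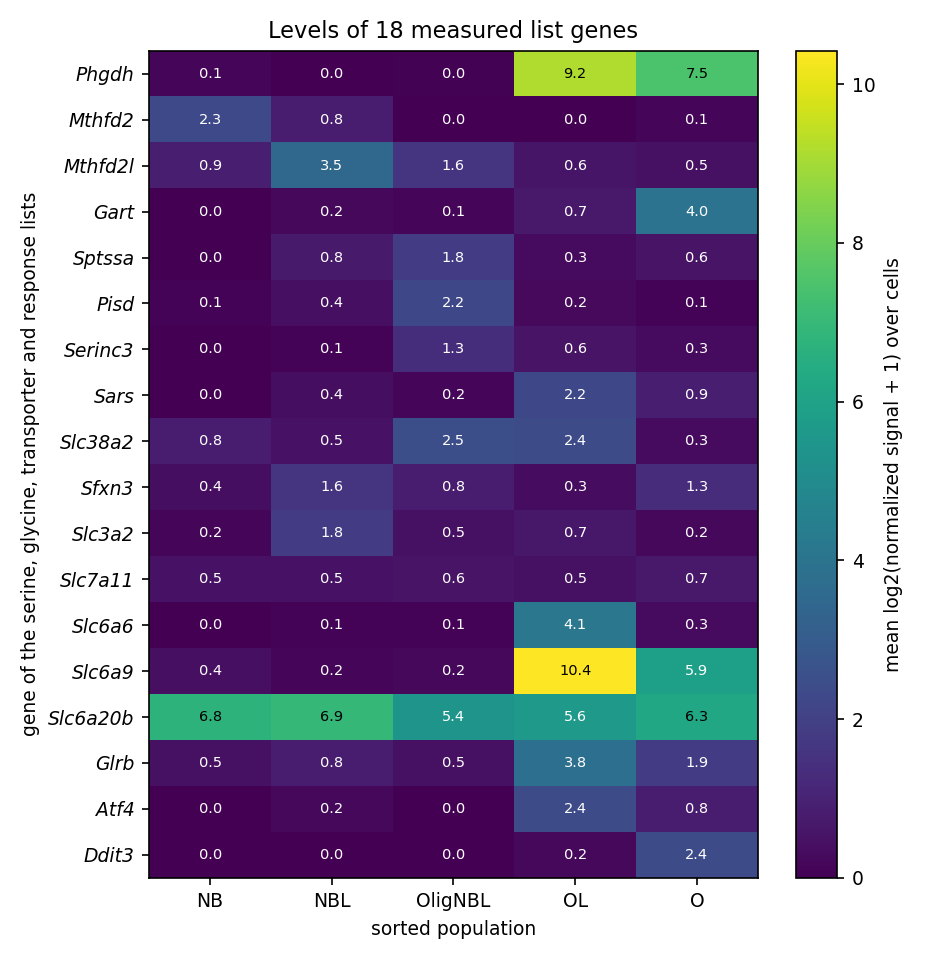
Mean log2(normalized signal + 1) over cells of 18 of the 19 measured genes from the serine, glycine, transporter and amino acid response lists (vertical) in the 5 populations (horizontal), with the value in each field. Phgdh and Slc6a9 are the 2 with levels above 5 in both OL and O and near 0 in NB, NBL and OligNBL, and Slc6a20b is high in all 5.

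Mature oligodendrocyte markers were high in the same populations as the pair. The summed log2 level of the 15 measured of 17 mature oligodendrocyte markers had medians of 131.3 in OL (40.3 to 172.6) and 104.8 in O (85.1 to 143), against 1.60 in NB, 0.85 in NBL and 1.11 in OligNBL. That of 12 neuroblast markers had medians of 32.7, 34.7 and 41.96 in NB, NBL and OligNBL and of 11.98 and 7.55 in OL and O. Of 20 astrocyte and neural stem cell markers 5 were measured (S100b, Fabp7, Apoe, Atp1b2 and Prom1), with a median sum of 14.6 in O (0 to 35.96), 4.59 in OL (0 to 12.1) and at most 3.08 elsewhere. The 6 progenitor markers had a median sum of 11.4 in OligNBL, 6.72 in O, 4.35 in OL, 2.72 in NBL and 0 in NB. They did not go one way. In OligNBL 4 of them were higher than in OL by at least 1. Sox10 was lower, at 0.58 in OligNBL against 4.47 in OL and 1.94 in O, and Olig1 was at 0.90 in OligNBL against 1.09 in OL. Snap25, the 1 measured of 6 mature neuron markers, was at 6.203 ± 5.22 in O, present in 18 of 29 cells, and at most 2.02 elsewhere. Gfap, Aqp4, Aldh1l1, Slc1a2 and Slc1a3 were on that astrocyte and stem cell list but not among the 3422 genes, and no microglial marker of 10 was measured. The share of other cell types in the Phgdh level of O part 3 was not tested.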

How the data were processed

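RNA of 155 sorted cells, 1 cell per sample, was analysed. The submitters' processing notes name kallisto, limma and GRCm38; the sources used here give no version, strand or rule by which the 3422 genes were selected. The deposited values, named as estimated counts, behaved as a normalized signal: the 8 highest values were equal in all cells and totals ran from 5155899 to 5161091. Count models were therefore not used.

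The members and lists were chosen with earlier results of these data known. Levels are means of log2(value + 1), with no test, since each of the 5 populations is 1 sample. A difference on this scale understates that of low genes. A gene was detected where it lay above the lowest value of the cell. Named genes were the members, list genes with a level of at least 2 in a population, and the 5 genes most like each member. Promoters came from RefSeq and transcripts from GENCODE vM21. Some genes that this rule names are not reported here. Doublets were not called. Alternatives covered the pseudocount, weighting, genes detected, early cell numbers, medians, parts left out, the rank limit and the joining of sets. The steps were tested on simulated data. Software was Python 3.11.15 with scipy 1.17.1, numpy 2.4.6, matplotlib 3.10.9 and pandas 2.3.3.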

Additional observations from a re-analysis of the deposited data

How the results depend on the processing

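Depth cannot be read from the values, and no population has a replicate. No paired analysis was possible because each population is 1 sample and the numbers in the titles only name cells. Of 62 levels recomputed under another scale or choice of cells, 56 moved by less than the spread between cells. With a pseudocount of 10, OligNBL minus OL was -5.99 for Phgdh. As log2 ratios of mean values, the differences for Phgdh were -13.55 (OligNBL minus OL), 11.04 (O minus NB) and -0.80 (NBL minus NB), and for Slc6a9 -15.68 (OligNBL minus OL) and -5.25 (NBL minus NB). With each part left out in turn, all 84 differences moved by less than the spread between cells. OL minus O for Phgdh reversed to -0.67 without O part 2; the cause was not tested. The ranges for Phgdh were -9.84 to -7.67 (OligNBL minus OL), -0.67 to 3.33 (OL minus O), 5.70 to 9.71 (O minus NB), -0.19 to 0 (NBL minus NB) and 0.04 to 0.06 (OligNBL minus NBL). For Slc6a9 they were -11.23 to -8.77, 3.12 to 7.01, 2.97 to 6.65, -0.44 to 0.17 and -0.0073 to 0.12 in that order. Of 34 shares recomputed, 23 stayed within their interval; counting any value above the floor, Slc6a9 was present in 93.1% of O cells. Joining sets at a mean correlation of 0.5 gave 35 sets, against 20 at 0.4. The counts of the 17 list genes past the limit (7 for OligNBL minus OL, 7 for OL minus O, 4 for O minus NB, 4 for NBL minus NB, 7 for OligNBL minus NBL) were 4, 3, 3, 1 and 3 with a pseudocount of 10, and 2, 2, 1, 0 and 0 for a difference of at least 3. Among genes with a level of at least 2 they were 2 for NBL minus NB and 4 for OligNBL minus NBL. Counting any value above the floor, both members were present in 24 O cells and 1 OligNBL cell.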
